A study of Mus musculus with 2 samples.

Results

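The messenger RNAs of 10 genes were followed that encode, or are made alongside, the basement membrane that endoderm lays down: the laminin chains Lama1, Lamb1 and Lamc1, the collagen IV chains Col4a1 and Col4a2, the nidogens Nid1 and Nid2, perlecan (Hspg2), Sparc and serglycin (Srgn). Every probe set whose platform annotation gave exactly 1 symbol from this list was taken, which yielded 20 probe sets for 10 of the 18193 genes named on the array. The cells were not endoderm. They were E14 cells, an established line of mouse embryonic stem cells grown on gelatin in serum with leukemia inhibitory factor, and all of them had been infected with an shRNA lentivirus and selected with puromycin. One group carried a non-targeting shRNA (shCtrl) and the other carried shSin3a-1, an shRNA against Sin3a, the scaffold of a histone deacetylase complex. Each group was 1 array made from total RNA amplified from the 3' end, so nothing below could be checked against replicates, no p-value can be given, and a single shRNA stands for the knockdown. The time between infection and collection is not given in the sources used here.

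A basement membrane is a thin sheet of extracellular matrix under an epithelium. Laminin heterotrimers of an alpha, a beta and a gamma chain polymerise on the cell surface through integrins and dystroglycan. A network of collagen IV, built from triple helices of COL4A1 and COL4A2, is joined to them by nidogen and perlecan. In the blastocyst, primitive endoderm and then parietal endoderm secrete this sheet in bulk, as Reichert's membrane, together with SPARC, a collagen-binding matricellular protein. Serglycin is a proteoglycan of secretory granules and not a structural part of the sheet; parietal endoderm makes it in quantity.

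Values were MAS5 signals, a measure of array brightness on a linear scale, and they are quoted as deposited. Differences and folds are shSin3a-1 against shCtrl after each array was centred on its log2 median, which lay lower by 0.11 on the shSin3a-1 array. This shift came from dim probe sets, since the 75th percentiles differed by only 0.0077, and the deposited scaling therefore makes each difference lower by 0.11. Probe sets were kept when either array's value was at or above that array's 60th percentile (signals of 131 and 126, here and below in the order shCtrl, shSin3a-1). A value under the 40th percentile was treated as a floor. All 3 probe sets of Sin3a were lower in shSin3a-1; the brightest had signals of 3072 and 534 (log2 difference -2.41).

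Most of the basement membrane genes were somewhat higher in the Sin3a knockdown array, and Srgn was much higher. By its brightest probe set Srgn was 4.36-fold higher, and Nid2, Lamb1, Lama1, Col4a2 and Col4a1 were 1.53-fold to 1.76-fold higher. Hspg2 was 1.37-fold higher, and Nid1, Sparc and Lamc1 differed by 1.15-fold or less. In a culture measured in bulk, a change in the number of cells of one type and a change in RNA per cell cannot be told apart.

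All 10 genes had a kept probe set, and 17 of the 20 probe sets were kept, all but 1 of them by both arrays. At 2-fold or more, 2 of the 17 kept probe sets were higher, beside 4.82% of all 17086 kept probe sets, and 0 were lower, beside 1.84%. At 1.5-fold or more, 10 of 17 (58.8%) were higher, beside 15.6% of all kept probe sets, and 0 were lower, beside 6.41%. Above 0 lay 16 of 17, beside 61.9% of all. The median log2 difference of the 17 was 0.65, and that of all kept probe sets was 0.11. Counted by brightest probe set, 1 of 10 genes was higher at 2-fold or more (2.43% of 9782 kept genes) and 0 were lower (2.01%). At 1.5-fold or more 6 of 10 genes were higher (10.2% of kept genes), and 10 of 10 lay above 0 (58.8%). By brightest probe set, 6 of 10 genes thus passed 1.5-fold and 1 passed 2-fold on the centred scale. The 17 kept probe sets come from 10 genes, so they are not independent. Of the 2 probe sets past 2-fold, 1, of Lamb1, was kept only through its shSin3a-1 value. The members were also chosen with earlier results of these data known. Without Srgn, the median over the 16 remaining probe sets was 0.63. With neither filter nor floor, all 20 probe sets entered: 3 were higher at 2-fold or more, beside 12.4% of the 34945 probe sets with 1 symbol, and 18 lay above 0, beside 54.9%.

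**Figure D1:**
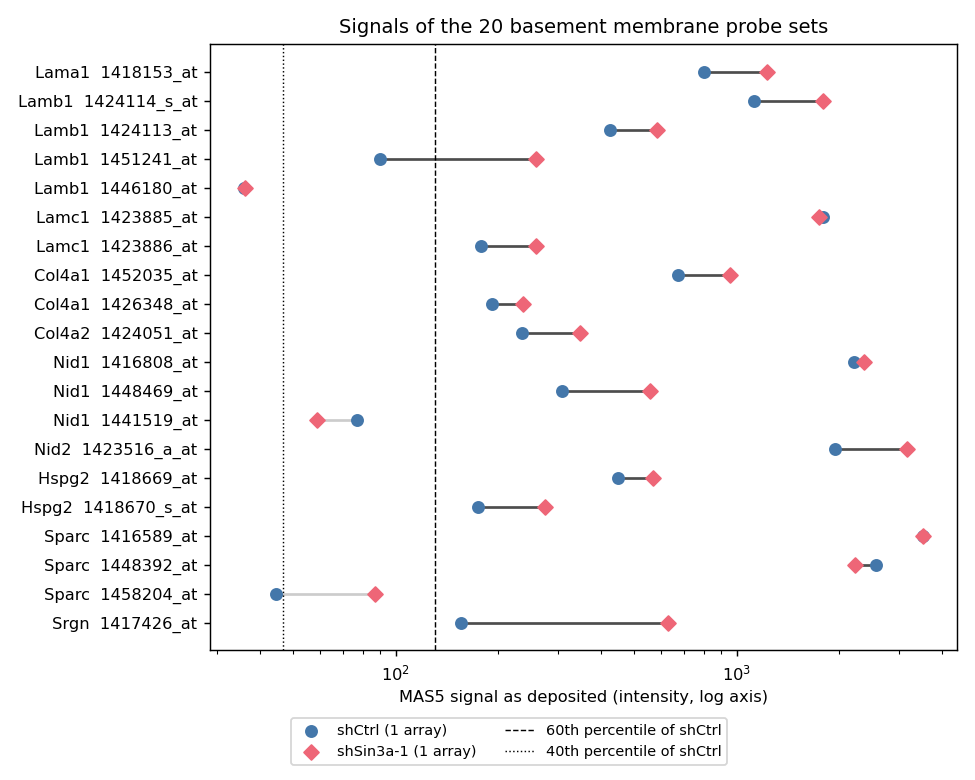
Deposited MAS5 signal (log axis) of each of the 20 probe sets in shCtrl (circles) and shSin3a-1 (diamonds), 1 array each, joined by a dark line where the probe set was kept and a pale one where it was not. The shSin3a-1 value lies to the right for most kept probe sets, furthest for Srgn (155 and 628), while those of Sparc and the bright probe set of Lamc1 nearly coincide.

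The 3 laminin chains form the trimer made by early embryonic endoderm, and the alpha and beta chains were higher by every kept probe set. Lama1, the alpha chain, which carries the domains that bind the cell surface, had signals of 802 and 1228 in its single probe set (1.65-fold higher, log2 difference 0.72). Lamb1, the beta chain, had 1123 and 1797 in its brightest probe set (1.73-fold, 0.79), whose name carries a suffix for transcripts with shared sequence. Its second probe set, without such a suffix, had 425 and 584 (1.48-fold, 0.57), close to the step seen in the first. The third probe set, a dim one, had 90.2 and 257 (3.08-fold, 1.62); it was kept only through its shSin3a-1 value, so a difference was built into its selection. The fourth had 35.9 and 36.2, under the floor on both arrays, and gives no difference.

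Lamc1, the gamma chain shared by most laminins, was split between its probe sets. The brighter one had 1791 and 1745, a log2 difference of 0.07 after centring that turned to -0.04 with the deposited scaling. The dimmer one had 177 and 258 (1.57-fold, 0.65). The bright probe set thus showed nearly equal levels while the dim one resembled Lama1 and Lamb1, and the arrays give no single answer for this chain.

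Both collagen IV chains were higher, by similar steps. Col4a1 had signals of 673 and 957 in its brighter probe set (1.53-fold, 0.62) and 191 and 236 in the dimmer (1.33-fold, 0.41). Col4a2 had 234 and 347 in its only probe set (1.60-fold, 0.68). The log2 difference of Col4a2 lay beside that of the brighter Col4a1 probe set. These genes are neighbours read in opposite directions from a shared region. In the RefSeq promoter table for GRCm38.p6 the start sites on chromosome 8 were at 11312826 for Col4a1 (minus strand) and 11312805 for Col4a2 (plus strand), 21 bases apart, so that each gene's upstream window lies across the first bases of the other.

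The linkers between the laminin and collagen networks differed more among themselves. Nid2 had signals of 1939 and 3158 (1.76-fold, 0.81), the second highest difference by brightest probe set after Srgn. This was also one of the brightest probe sets in the group, though its name carries a suffix for transcripts with shared sequence. Nid1, the paralog of Nid2, had 2214 and 2361 in its brightest probe set (1.15-fold, 0.20), nearly the same on both arrays. Its second probe set had 308 and 558 (1.96-fold, 0.97), just under 2-fold. The third had 76.8 and 58.6, lower in shSin3a-1 but too dim to be kept. Hspg2, which encodes the heparan sulfate proteoglycan perlecan, had 448 and 569 (1.37-fold, 0.45), and its suffixed probe set had 174 and 275 (1.70-fold, 0.77). Both Hspg2 probe sets were therefore higher, with the larger step in the dimmer.

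Sparc was the member with the least difference over its kept probe sets (median 0.0092). Its brightest probe set had signals of 3510 and 3531, a log2 difference of 0.12 after centring and 0.0083 as deposited. The second had 2567 and 2224, with a difference of -0.10 after centring and -0.21 as deposited, the only kept member probe set below 0. Both are bright, and both differed by 1.08-fold or less on the centred scale. The third probe set had 44.7 and 87.1; it lay under the floor in shCtrl and did not reach the filter.

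Srgn stood apart from the matrix genes. Its single probe set had signals of 155 and 628, 4.36-fold higher (log2 difference 2.13, or 2.02 as deposited). This was rank 20 from the highest among the 17086 kept probe sets. The shCtrl value lay at percentile 62.6 of its array, only just above the level of the filter, and no second probe set was there to compare.

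The array does not read promoters, and the upstream sequences of some members are given as context. These are Srgn with the highest difference, Sparc with the lowest median over its kept probe sets, and Nid1, whose probe sets disagreed. Those of Lamb1, whose sequence is not shown, disagreed more (range 1.05, against 0.77 in Nid1). RefSeq's table for GRCm38.p6 held 8 start sites of 7 members and none for Lama1, Lamc1 or Nid2. The 250 bases before each start were searched on both strands for 6 motifs, and the matches found are in capitals below. For Srgn the outer of its 2 start sites is shown, and the Nid1 window runs into an annotated pseudogene, Gm7426.
Srgn, chr10:62527446-62527695, minus strand: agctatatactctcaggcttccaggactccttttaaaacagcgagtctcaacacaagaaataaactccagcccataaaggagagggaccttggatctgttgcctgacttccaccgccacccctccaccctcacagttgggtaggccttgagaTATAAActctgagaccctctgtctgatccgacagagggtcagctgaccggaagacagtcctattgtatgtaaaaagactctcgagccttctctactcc
Nid1, chr13:13437352-13437601, plus strand: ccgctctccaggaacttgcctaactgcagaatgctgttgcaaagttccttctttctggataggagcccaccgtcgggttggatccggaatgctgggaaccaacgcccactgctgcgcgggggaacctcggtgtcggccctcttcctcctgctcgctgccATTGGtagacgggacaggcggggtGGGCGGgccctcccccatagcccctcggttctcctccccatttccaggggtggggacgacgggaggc
Sparc, chr11:55420081-55420330, minus strand: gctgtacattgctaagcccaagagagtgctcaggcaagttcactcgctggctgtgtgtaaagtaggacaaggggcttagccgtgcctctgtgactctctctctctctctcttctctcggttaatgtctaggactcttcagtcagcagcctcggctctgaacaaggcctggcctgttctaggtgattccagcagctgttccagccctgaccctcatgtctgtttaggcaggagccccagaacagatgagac
The capitals in Srgn mark TATAAA, the letters of a TATA box, 98 to 93 bases before the start; 12.4% of all 32851 windows hold them. Those in Nid1 mark ATTGG, the reverse complement of the CCAAT box (33.8% of windows hold CCAAT on either strand), and GGGCGG, a GC box (32.7%). The window of Sparc held none of the motifs, and neither did that of the inner Srgn start site, which is not shown. GGGCGG was in 4 of the 8 member windows, those of Hspg2, Col4a2, Lamb1 and Nid1, with 5 copies in Hspg2. CCAAT was in 4, those of Col4a1, Col4a2, Lamb1 and Nid1. GATAA, the core of GATA factor sites (22.6% of all windows), ACAAAG, a core of SOX and TCF sites (16.5%), and CACGTG, an E-box (6.02%), were in none of the 8. No 2 matches overlapped. The count describes these letters in these windows only.

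The size of a difference varied with brightness. Among the 6 kept member probe sets whose brighter value lay above the 90th percentile, the median log2 difference was 0.16, against 0.09 over all 4341 such probe sets; Nid2 and the brightest of Lamb1 were at 1.5-fold or more, as were 7.39% of the 4341. Among the 6 between the 75th and 90th percentile the median was 0.67, against 0.13 over 6655. Among the 5 between the 60th and 75th it was 0.68, against 0.11 over 6090. The bright group therefore held both the members nearest to 0 and 2 of the clearest higher ones.

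Probe sets of the same gene often disagreed on these arrays, which limits what a single one can show. Over 4413 genes with at least 2 kept probe sets, the pooled SD between probe sets of a gene was 0.39 on the log2 scale. In 60.1% of them all probe sets lay on the same side of 0, and in 57.2% the dimmest had a higher difference than the brightest. Of the 6 members with at least 2 kept probe sets, the dimmest was higher than the brightest in 4: Lamb1, Lamc1, Nid1 and Hspg2. The range within Lamb1 was 1.05, reached or passed by 11.7% of the 4413 genes, and within Nid1 0.77, reached by 23.6%. The ranges within Col4a1 (0.20) and Sparc (0.22) were narrower than the median range of 0.41. The differences of Lama1, Lamb1, Col4a1, Col4a2, Nid2 and Srgn by brightest probe set were larger than the pooled SD on the centred scale, and so was that of Hspg2 (0.45), which was under it as deposited (0.34). That SD is a spread between probe sets and not between cultures.

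**Figure D2:**
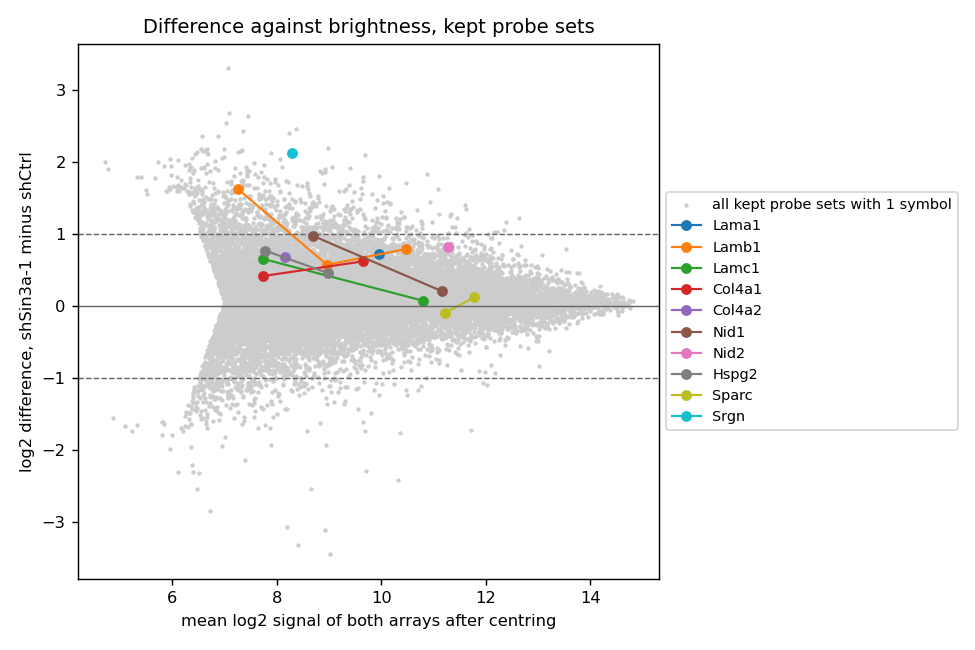
Log2 difference (shSin3a-1 minus shCtrl, centred) against mean log2 signal for all 17086 kept probe sets (grey) and the 17 kept member probe sets (colours, lines join probe sets of the same gene); dashed lines mark 2-fold. Srgn and the dimmest Lamb1 probe set lie above 2-fold, and the Lamc1 and Nid1 lines drop towards 0 as signal increases.

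The direction of the near-zero members depended on the scaling, and that of the others did not. With the deposited scaling 15 of 17 kept probe sets lay above 0, beside 50.3% of all kept probe sets, and 7 were higher at 1.5-fold or more, beside 11.6%. By brightest probe set 9 of 10 genes lay above 0 (45.8% of kept genes), and 4 were at 1.5-fold or more (7.13%), with Col4a1 and Col4a2 now under it. Scaling on the 75th percentile gave the same counts of probe sets, 15 and 7, and quantile scaling gave 14 and 6. By gene, quantile scaling left 8 of 10 above 0 and 3 at 1.5-fold or more. The median of the 17 lay between 0.53 and 0.57 under these scalings, beside medians of all kept probe sets between -0.0050 and 0.0028. The same 2 probe sets, of Srgn and Lamb1, passed 2-fold under all 4 scalings. That of Lamb1 was the dim one kept only through its shSin3a-1 value, and the brighter Lamb1 probe sets did not pass 2-fold.

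**Figure D3:**
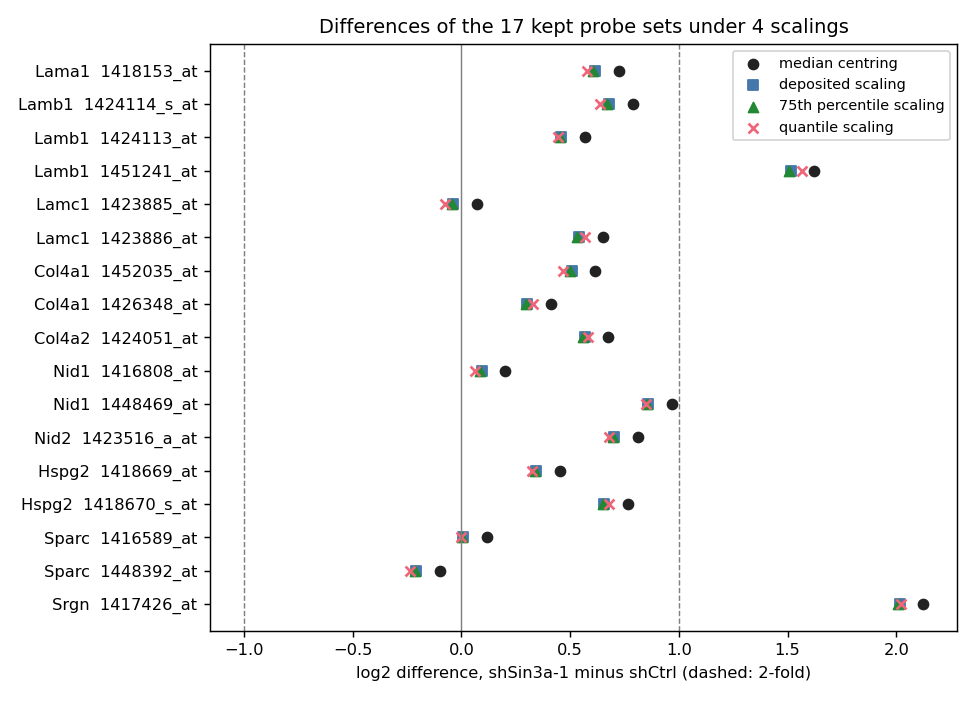
Log2 difference (shSin3a-1 minus shCtrl) of the 17 kept member probe sets after median centring and under the deposited, 75th percentile and quantile scalings; dashed lines mark 2-fold. Only the brightest probe sets of Lamc1 and Sparc cross 0 between scalings, and Srgn lies at 2.01 or above in each.

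Other genes of the basement membrane, counted by brightest probe set, were mostly too dim to be kept or near 0. Of 7 other laminin chains on the array 2 were kept, Lama5 at 0.15 and Lama3 at -0.42, the latter kept only through shCtrl. None of the 4 other collagen IV chains, Col4a3 to Col4a6, was kept. Of 18 other components 6 were kept and 5 of these lay below 0, with a median of -0.16. Ntn1, which encodes netrin-1, a laminin-related guidance cue, was the exception, with signals of 483 and 1308 (2.92-fold higher, 1.55) in the single kept probe set. Col18a1, the collagen that releases endostatin, had 2172 and 1332 (-0.60), and Fbln1, encoding fibulin-1, had 373 and 192 (-0.85). Both were picked after their values were seen. The other kept probe set of Fbln1 was lower at 2-fold or more (-1.25). Of 7 SPARC family genes 2 were kept, with Fstl1 at -0.06 and Smoc1 at -0.04.

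Lists of the machinery that folds, modifies and binds these proteins had medians near 0. Counted by brightest probe set, 0 of 13 kept genes of collagen folding, modification and export passed 2-fold and the median was -0.03. Another kept probe set was higher at 2-fold or more in Mia3 (1.27) and P4ha1 (1.10). Loxl3, a lysyl oxidase that crosslinks collagen, differed most, with signals of 139 and 66.5 (-0.95); it was kept only through shCtrl. Serpinh1, the collagen chaperone HSP47, picked after its value was seen, had 880 and 697 (-0.23). Of 15 kept genes of glycosaminoglycan chain synthesis, which build the sugar chains of perlecan and serglycin, 0 passed 2-fold and the median was -0.05. Ndst2, a heparan sulfate sulfotransferase, differed most (352 and 206, -0.662). Hs2st1, another such enzyme, picked after its value was seen, was nearly as far above 0 (1227 and 1797, 0.659). Its 4 kept probe sets were split, 2 above 0 and 2 below, from -1.33 to 0.66.

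Counted by brightest probe set, 1 of 13 kept integrins and other receptors passed 2-fold, and the median was 0.03. This was Itgb5, a partner of the alpha-v integrin, with signals of 599 and 277 (2.00-fold lower). Its 4 kept probe sets were all below 0, the nearest to it at -0.18. Another kept probe set passed 2-fold in Sdc1 (1.14) and in Ddr1 (-1.18). Of the laminin receptors, picked after their values were seen, Itga6 (4016 and 5437, 0.55) and Itgb1 (1274 and 1583, 0.42) were within 2-fold. Itga3 (587 and 557, 0.03) and dystroglycan, Dag1 (2246 and 2129, 0.03), were near equal. Of 8 kept matrix proteases and inhibitors 1 passed 2-fold, the gelatinase Mmp2 (309 and 134, -1.10), and the median was 0.17. Htra1, a protease picked after its value was seen, went the other way (1434 and 2475, 0.896). Its other kept probe set was higher at 2-fold or more. The medians of these 7 lists with kept genes lay between -0.16 and 0.17, beside 0.65 for the 10 genes and 0.07 for all kept genes. The receptors' median turned to -0.08 with the deposited scaling. No test of these differences was possible with 1 array per group.

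Regulators of primitive endoderm were dim, and several were higher in shSin3a-1. Of 9 on the array 5 were kept, with a median of 0.78. All 5 lay above 0, beside 58.8% of all kept genes, and 2 were higher at 2-fold or more, beside 2.43%. Of these 5, 4 were kept only through their shSin3a-1 value, which fixes their direction; Dab2, an endocytic adaptor of endoderm, was kept by both arrays, with signals of 173 and 276 (1.72-fold, 0.78). With neither filter nor floor 8 of the 9 lay above 0, beside 54.9% of all probe sets with 1 symbol. Among the 8 were Foxq1, near equal (56.8 and 57.9), and Foxa2, under the floor in shCtrl (21.1 and 41.7). Hnf4a lay below 0 (57.9 and 14.3) and was under the floor in shSin3a-1. Sox17, a transcription factor of endoderm, had signals of 41.1 and 221, at least 5.10-fold higher since shCtrl was at the floor. Pdgfra, a receptor tyrosine kinase of primitive endoderm, had 58.5 and 131 (2.42-fold, 1.27). The 5 had shCtrl signals between 41.1 and 173, and Gata4, Foxa2, Hnf4a and Foxq1 were not kept. Of 8 parietal endoderm markers only Fst was kept (-0.20). With neither filter nor floor 2 of the 8 lay above 0, Thbd (59.8 and 89.1) and Plat (46.6 and 58.9), and 6 lay below, among them Krt19 (124 and 62.6). Of 10 visceral endoderm markers 5 were kept, with Amn, part of the cubilin receptor, at 103 and 230 (2.40-fold higher, 1.26, kept only through shSin3a-1), Apoe at 1466 and 817 (-0.73), the others between -0.62 and 0.63, and a median of 0.14; Afp, Apoa1, Apob and Ihh were under the floor on both arrays. Ttr, also not kept, had 64.1 and 26.9 and fell below the floor in shSin3a-1 alone. Without filter or floor, 5 of the 10 visceral markers lay above 0 and 5 below. The summed signal of the list was 589 and 458 for parietal endoderm and 2524 and 1936 for visceral endoderm. Apoe alone set the direction of the visceral sum, which was 1059 and 1120 without it.

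**Figure D4:**
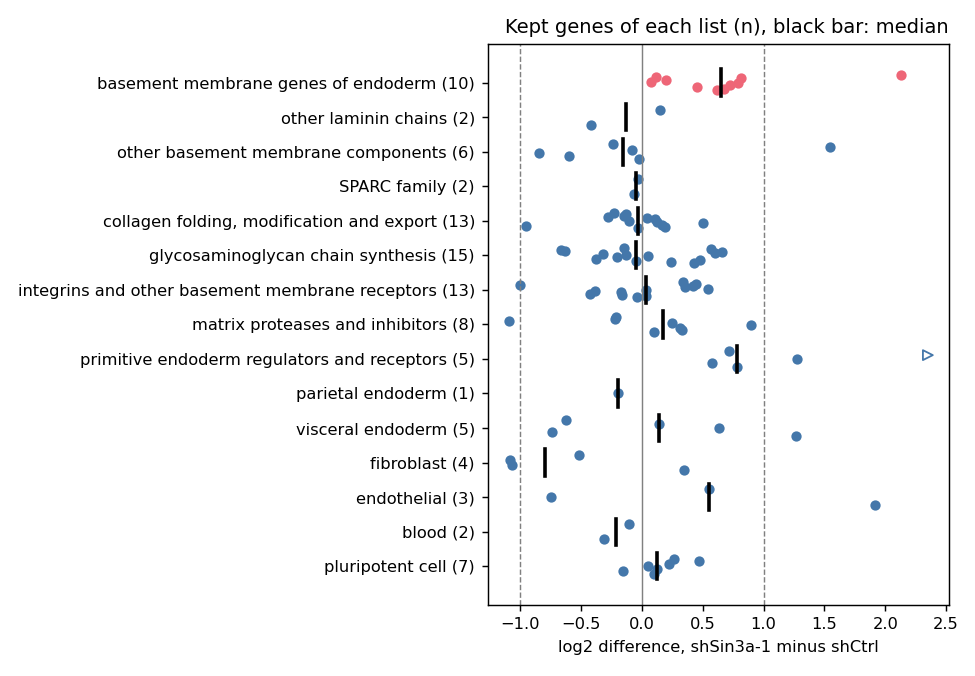
Log2 difference (shSin3a-1 minus shCtrl, centred) of every kept gene, by brightest probe set, in the basement membrane group (red) and in 14 other lists (blue), with the number of kept genes in brackets and a black bar at the median; the open triangle is a lower bound and dashed lines mark 2-fold. The medians run from -0.79 (fibroblast) to 0.78 (primitive endoderm regulators, 4 of 5 kept only through shSin3a-1), with 0.65 for the 10 genes and 0.55 for 3 endothelial markers.

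Other cells that make basement membrane are fibroblasts and endothelium, and their markers were checked beside these values. Of 15 fibroblast markers on the array 4 were kept, with a median of -0.79, and the summed signal was 1134 and 784. Pdgfrb (203 and 89.0, -1.08) and Loxl1 (181 and 80.0, -1.07) were lower at 2-fold or more, and they and Thy1 (-0.52) were kept only through shCtrl. Col5a1 was the only one kept by both arrays, and it was higher (194 and 229, 0.35). Of the defining fibroblast matrix genes, Col1a1, Col3a1, Dcn and Lum were under the floor on both arrays. Col1a2 (32.2 and 49.6), like Acta2 (41.1 and 69.8), was under it in shCtrl and above it in shSin3a-1. Col6a2 went the other way (108 and 13.9), under the floor in shSin3a-1 only. With neither filter nor floor 5 of the 15 markers lay above 0 and 10 below, beside 54.9% of all probe sets with 1 symbol above 0. Of 9 endothelial markers 3 were kept, with a median of 0.55 and a summed signal of 983 and 1062. These were Esam, an adhesion molecule, at 78.4 and 275 (3.78-fold higher, 1.92, kept only through shSin3a-1), Tek at 184 and 251 (0.55) and Pecam1 at 529 and 292 (-0.75). Cdh5, Emcn and Tie1 lay below the floor in both groups. Kdr (5.93 and 91.5) was under the floor in shCtrl only, Robo4 (59.4 and 34.7) in shSin3a-1 only, and Flt1 (48.1 and 66.3) did not reach the filter. Of 9 blood cell markers, checked because blood cells also make serglycin, 2 were kept, and the summed signal was 2114 and 1798. By brightest probe set these were Coro1a (-0.31) and Laptm5 (-0.11), but the 3 kept probe sets of Laptm5 ran from -0.22 to 0.97. Ptprc, Lcp1, Fcer1g and Hba-a1 lay below the floor in both groups. Spi1 (15.7 and 64.1) and Tyrobp (8.34 and 46.9) were under it in shCtrl only, and Cd53 (51.6 and 25.1) in shSin3a-1 only. By brightest probe set the 7 pluripotent cell markers were all kept and within 2-fold, with Tdgf1 differing most (0.47) and a summed signal of 81635 and 85562. The 3 kept probe sets of Esrrb ran from -0.61 to 1.18. The part of cell composition in the differences of the 10 genes was not tested.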

How the data were processed

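RNA of E14 cells was measured on 1 Affymetrix 3' expression array for shCtrl and 1 for shSin3a-1, grouped by the shRNA in the labels. The authors deposited linear intensity signals; the submitters' processing notes name MAS5 and Affymetrix Expression Console, with no version. The number of arrays limits the precision. MAS5 takes off a mismatch signal, which widens ratios near background.

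Of 45101 probe sets 34958 had exactly 1 symbol in the platform annotation, and 34754 of these were updated through a RefSeq gene table of GRCm38.p6. Signals were taken to log2 with pandas 2.3.3, control probe sets were left out, and arrays were centred on their medians since these differed by over 0.1. Filter (60th percentile), floor (40th percentile) and 2-fold size are given in the report. The probe set of highest mean log2 signal stood for its gene. With 1 array per group no test was run. The procedure was tested on simulated data. Every member is named. Of each other list, as many as 3 genes at 2-fold or more in each direction are named, or failing that the one furthest from 0, and every other gene named from these lists was picked after its value was seen. The members and lists were chosen with earlier results of these data known. Alternatives were other scalings, floors, filters, an offset, probe set choices and 1.5-fold.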

Additional observations from a re-analysis of the deposited data

How the results depend on the processing

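The median log2 difference of the member probe sets stayed above 0 in all 9 alternatives run, from 0.53 with the 75th percentile scaling to 0.65. At 1.5-fold in place of 2-fold, 10 probe sets and 6 genes were counted, against 2 and 1. With the filter at the 75th percentile 1 of 12 probe sets passed 2-fold, since the dim Lamb1 probe set is left out, and Col4a2 had no kept probe set. By gene, the difference of Lamc1 ranged from -0.07 (quantile scaling) to 0.36 (mean of its probe sets) and that of Sparc from -0.0030 to 0.36, the latter only where its unkept dim probe set enters the mean (0.0092 over its kept ones); the other 8 genes were above 0 in every alternative that gave them a value, Srgn from 1.82 with an offset of 50 before log2 to 2.13. No paired analysis was possible because each group had 1 array. No array could be left out for the same reason.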
